A study of Rattus norvegicus with 9 samples.

Results

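Of 11372 genes measured at a mean of at least 1 FPKM in rat synovial fibroblasts, 59 were set apart by being highest in the cells that received IL-1β and shared a transwell with dermal fibroblasts, above both the cells given IL-1β alone and the untreated cells. FPKM are fragments scaled by transcript length and library size. A gene was chosen when its mean log2(FPKM + 1) over the 3 co-culture libraries exceeded that of the 3 IL-1β libraries and that of the 3 control libraries by at least 0.25, and when its lowest co-culture value lay above its highest value in the other groups. Of the genes measured, 85 met this rule (0.747%), 26 of them were left out by the start of their symbol or by name, and 59 remained (0.519%). The starts were LOC, Itg, Lam, Col, Slc, Mrp, Psm, Rpl, Rps, Nduf, Mcm, Rfc, Pol, Gins, Cenp, Kif, Cdc, Ccn, Cxcl and Angptl. Counts by role below are of the genes that remained, and depend on this filter. The differences between co-culture and each other group are what chose these genes, so they are given below as a description with no test. The rule set no threshold on the gap between IL-1β alone and control, and this gap is tested, in the same libraries. The IL-1β and control values helped to choose the genes, so the p-values of the 59 genes are a description too.

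All 9 libraries hold RNA of synovial fibroblasts with the genotype WT, fibroblasts of the membrane that lines a joint, taken from the lower chamber. The co-culture group was stimulated with IL-1β, an inflammatory cytokine, and grown with dermal fibroblasts of the skin in the upper chamber. The IL-1β group received the cytokine alone, and the control group was kept in routine culture without it. No strain, age, dose or duration is given in the labels, and no group analysed here had dermal fibroblasts without IL-1β. The titles call the control and IL-1β groups normal culture, and do not say whether these had an upper chamber without cells. A difference in culture format could therefore not be tested apart from the presence of dermal fibroblasts. It is not stated whether the 3 libraries of each group are from separate animals or separate dishes, and p-values therefore measure the scatter of these 9 libraries alone, part or all of which can be technical. The depth of sequencing is also unknown. All 17 listed synovial fibroblast markers were measured. Thy1 was at 601 to 628 FPKM in co-culture, 661 to 674 FPKM with IL-1β and 735 to 772 FPKM in control, and Prg4, which encodes the joint lubricant lubricin, at 137 to 142, 294 to 301 and 95.8 to 96.9 FPKM in the same order of groups. Rank correlations across genes were 0.995 to 0.996 within a group and 0.958 to 0.991 between groups.

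A cell that divides must license its replication origins, copy its DNA, wrap the new strands in histones and then part the chromosomes on a spindle, and it makes ribosomes and spliced mRNA to supply this growth. Fibroblasts of the joint lining do this while they also secrete matrix proteins, proteases and protease inhibitors that shape the tissue around them. IL-1β is known for switching such cells to the release of inflammatory mediators and matrix-degrading enzymes.

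The 59 genes stood only a little above the other groups. The margin over the nearer group ranged from 0.25 to 0.54 on the log2(FPKM + 1) scale, with a median of 0.29. As ratios of mean FPKM, co-culture was 1.196-fold to 2.56-fold over IL-1β, with a median of 1.37-fold, and 1.198-fold to 2.83-fold over control, with a median of 1.29-fold. At least 2-fold over IL-1β were 4 genes, Actg2, Vkorc1l1, PCOLCE2 and Aldh3a1, and at least 2-fold over control were 2, Camk2n2 and Krt7. Control was the nearer group for 40 of the genes and IL-1β for 19. The step from the lowest co-culture library to the highest other library had a median of 0.16 and reached 0.25 in 11 genes. Their levels were ordinary for these cells: the median of their co-culture means was 13.8 FPKM, against 14.2 FPKM over all genes measured, with 12 genes under 5 FPKM and 10 over 50 FPKM.

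**Figure D1:**
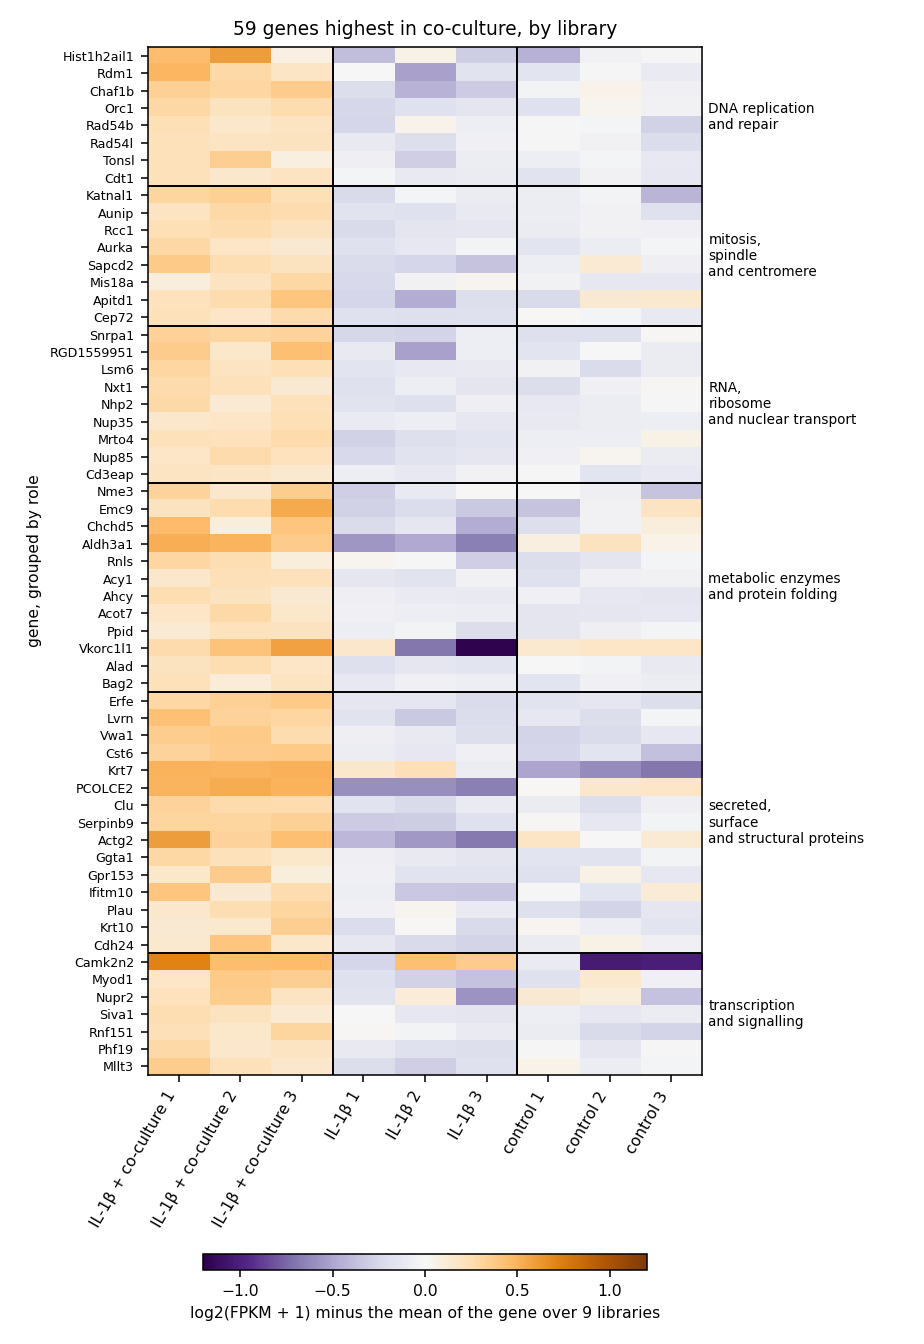
The 59 genes in rows, grouped by role, and the 9 libraries in columns; colour gives log2(FPKM + 1) minus the mean of the gene over the 9 libraries, from purple (below) to orange (above). All 59 genes are above their mean in the co-culture libraries, which the rule fixes, while the IL-1β and control columns differ from gene to gene, with Krt7 and Camk2n2 lowest in control and PCOLCE2, Aldh3a1 and Actg2 lowest with IL-1β.

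Read against the same rule for the other groups, this pattern was rare. With the same symbols left out, 59 genes were highest and 13 lowest in co-culture, 942 were highest and 1328 lowest with IL-1β, and 363 were highest and 390 lowest in control. All co-culture libraries above all other libraries, without the margin, was found for 1027 genes (9.03%). The count depends on how the libraries are scaled to each other. After median-of-ratios scaling 35 genes were highest and 23 lowest in co-culture, and after quantile normalization 40 and 27. Of the 59 genes, 35 still met the rule under the first scaling, 40 under the second and 33 under both. Neither scaling kept Hist1h2ail1, Chchd5, Camk2n2, Siva1, Plau, Mis18a, Acot7, Nup35 or Rnf151. The same held for Cdt1, Phf19, Ppid, Mrto4, Alad, Nup85, Bag2 and Cd3eap. Only the second kept Aurka, Ahcy, Rad54b, Mllt3, Cep72, Cdh24 and Vkorc1l1, and only the first kept Nhp2 and Apitd1. Against the mean library, the size factors of median-of-ratios scaling were 1.02 in each co-culture library, 0.969 to 0.983 with IL-1β and 1.00 to 1.01 in control.

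**Figure D2:**
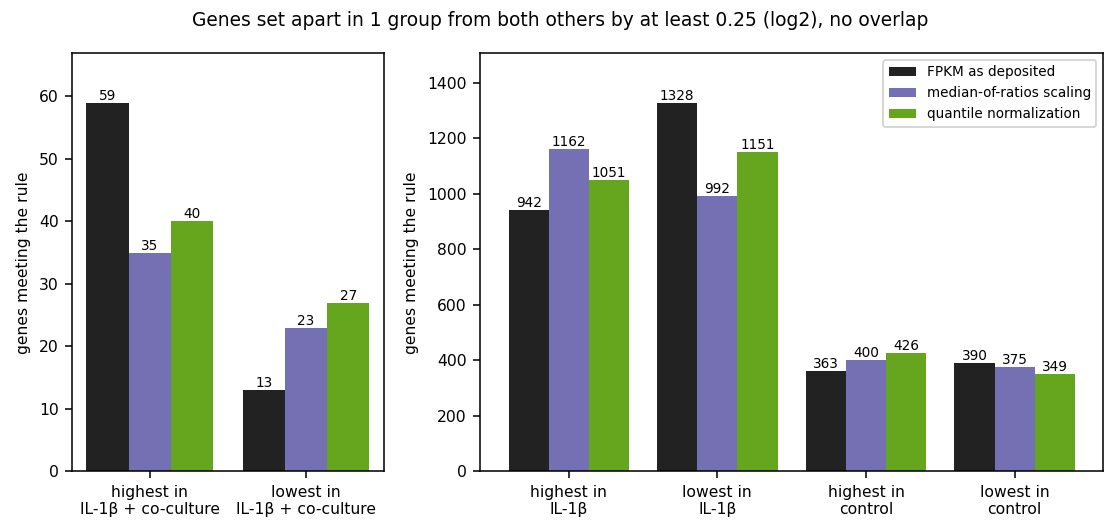
Bars give the number of genes that differ in 1 group from both others by at least 0.25 on the log2(FPKM + 1) scale with no overlap of libraries, for co-culture (left panel) and for IL-1β and control (right panel, another scale), under 3 scalings of the libraries. Co-culture has 59, 35 and 40 genes as the highest group, against 942, 1162 and 1051 for IL-1β.

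The largest group by role held 15 genes labelled as secreted, surface and structural proteins, with a median margin of 0.36, and 13 of these 15 still met the rule after median-of-ratios scaling. The label is broad, and some of its genes, such as Serpinb9 and Ggta1, encode proteins that are none of these. Of the other role groups, 5 of 8 replication and repair, 5 of 8 mitosis and 5 of 9 RNA and transport genes did. So did 5 of 12 metabolic and folding genes and 2 of 7 transcription and signalling genes. Erfe (gene ID 681056), which encodes erythroferrone, a hormone known from red cell precursors for lowering hepcidin, had 13.4, 13.9 and 14.2 FPKM in co-culture, 9.77, 9.74 and 9.15 FPKM with IL-1β and 9.54, 9.76 and 9.29 FPKM in control. IL-1β and control libraries lay within the same narrow range, and co-culture was 1.45-fold over each. Clu (gene ID 24854), which encodes clusterin, a secreted chaperone, had 74.3, 72.0 and 71.4 FPKM in co-culture, 53.0, 50.7 and 55.8 FPKM with IL-1β and 55.9, 52.0 and 57.1 FPKM in control. Its other 2 groups also overlapped, and co-culture was 1.36-fold over IL-1β and 1.32-fold over control. Vwa1 (gene ID 298683), which encodes a matrix protein with a von Willebrand factor A domain, had 13.3, 13.45 and 12.4 FPKM in co-culture, 9.73, 9.38 and 8.77 FPKM with IL-1β and 8.27, 8.63 and 9.22 FPKM in control. Lvrn, the gene of laeverin, a membrane aminopeptidase known from human placenta, had 4.41, 4.01 and 3.95 FPKM in co-culture, 2.60, 2.22 and 2.48 FPKM with IL-1β and 2.68, 2.49 and 2.96 FPKM in control.

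Some genes of this group had 3 separate levels, of which the rule fixed that co-culture lay highest and apart. The share of all genes with 3 separate levels was not counted, here and below. Between IL-1β and control, 51.7% of all genes differed by limma at an adjusted p below 0.05. PCOLCE2 (gene ID 684050), whose protein enhances the removal of the C-terminal propeptide of procollagens, had 43.9, 45.1 and 44.4 FPKM in co-culture, 20.2, 20.2 and 19.2 FPKM with IL-1β and 31.1, 34.6 and 35.15 FPKM in control. No libraries of different groups overlapped, and co-culture was 2.24-fold over IL-1β and 1.32-fold over control. Krt7 (gene ID 300242), a keratin gene of simple epithelia, had 17.6, 17.5 and 17.7 FPKM in co-culture, 13.6, 14.4 and 11.4 FPKM with IL-1β and 8.30, 7.55 and 7.10 FPKM in control. Here the lowest group was control, and co-culture was 2.30-fold over it. Actg2 (gene ID 25365), a smooth muscle gamma actin gene, had 5.18, 4.08 and 4.52 FPKM in co-culture, 2.08, 1.77 and 1.53 FPKM with IL-1β and 3.63, 3.07 and 3.47 FPKM in control. Actin genes are near-identical copies of each other, so the share of its reads is uncertain.

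Protease inhibitors and a protease were also among them. Serpinb9, which encodes an inhibitor of granzyme B, had 12.5, 12.5 and 12.8 FPKM in co-culture, 7.77, 7.82 and 8.72 FPKM with IL-1β and 10.03, 9.04 and 9.68 FPKM in control. Cst6, the gene of cystatin E/M, an inhibitor of cysteine proteases, had 2.98, 3.11 and 3.13 FPKM in co-culture, 2.03, 1.94 and 2.09 FPKM with IL-1β and 1.68, 1.88 and 1.47 FPKM in control. Plau, the gene of the urokinase plasminogen activator, had 24.5, 26.1 and 27.2 FPKM in co-culture, 21.0, 22.45 and 20.3 FPKM with IL-1β and 19.1, 17.9 and 19.8 FPKM in control. Co-culture stood apart by the rule. The IL-1β and control libraries did not overlap either for these 3 genes, with IL-1β lowest for Serpinb9 and control lowest for Cst6 and Plau. The difference between IL-1β and control was not past the threshold of 0.05 for Cst6 (limma adjusted p = 0.054). Outside the rule for naming were the remaining members Ggta1, Gpr153, Ifitm10, Krt10 and Cdh24, whose co-culture means ran from 1.69 FPKM in Ifitm10 to 26.4 ± 2.64 FPKM in Gpr153, an orphan receptor gene (SD, n = 3).

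**Figure D3:**
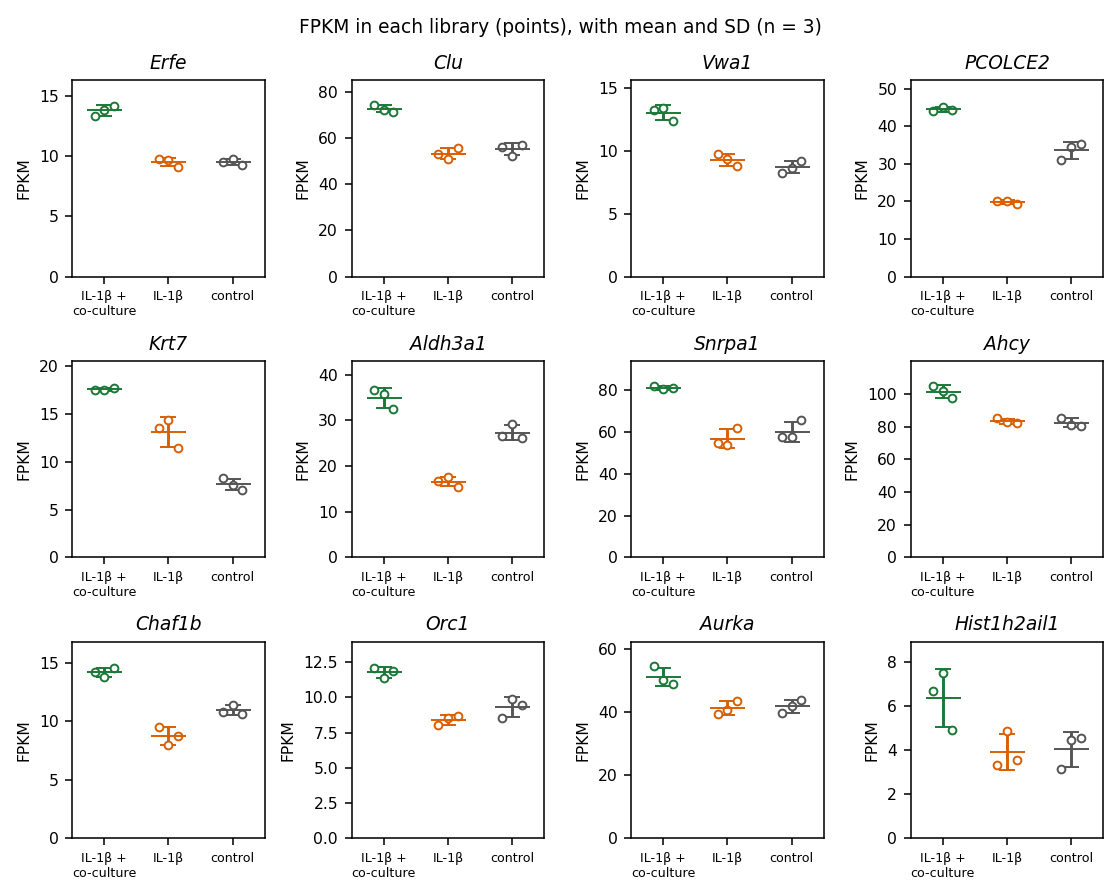
FPKM of 12 of the genes in each library (open points), with the mean and SD of 3 libraries per group; each panel has its own axis from 0, with co-culture, IL-1β and control from left to right. Erfe, Clu and Ahcy have the other 2 groups at the same level, PCOLCE2, Aldh3a1 and Chaf1b have IL-1β lowest, Krt7 has control lowest, and the co-culture libraries of Hist1h2ail1 spread from 4.91 to 7.49 FPKM.

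DNA replication and repair contributed 8 genes, with a median margin of 0.30. Cdt1 (gene ID 292071) and Orc1 act together at the origin: ORC1 is a subunit of the origin recognition complex and CDT1 helps it to load the replicative helicase. Cdt1 had 18.7, 17.8 and 18.3 FPKM in co-culture, 15.6, 14.7 and 14.9 FPKM with IL-1β and 14.1, 15.5 and 14.45 FPKM in control. Orc1 (gene ID 313479) had 12.1, 11.35 and 11.9 FPKM in co-culture, 8.03, 8.53 and 8.68 FPKM with IL-1β and 8.52, 9.92 and 9.44 FPKM in control. For both, the IL-1β and control libraries overlapped. Chaf1b (gene ID 288242), a subunit of the CAF-1 complex that puts histones on newly copied DNA, had 14.2, 13.8 and 14.6 FPKM in co-culture, 9.50, 7.97 and 8.76 FPKM with IL-1β and 10.8, 11.45 and 10.7 FPKM in control, which are 3 separate levels.

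The widest margin of all 59 genes, 0.54, was that of the histone gene Hist1h2ail1 (gene ID 291159), but its highest co-culture library was 1.525-fold over its lowest, the widest spread of the 59. It had 6.67, 7.49 and 4.91 FPKM in co-culture, 3.33, 4.87 and 3.56 FPKM with IL-1β and 3.13, 4.45 and 4.55 FPKM in control. The lowest co-culture library was 4.91 FPKM against 4.87 FPKM in the highest IL-1β library, and the gene no longer met the rule under either scaling. Histone genes are a family of near-identical copies, most of whose mRNA has no poly(A) tail, and these libraries were captured with oligo(dT), so its level is uncertain. Its symbol is of the H2A type, but its RefSeq promoter window reads, from its last ATG, as MARTKQTARKS, the start of histone H3. Which histone is counted under this gene ID was therefore not settled. The recombination genes were low: Rad54l, which encodes a motor protein of homologous recombination, averaged 7.28 ± 0.0710 FPKM in co-culture, 5.64 ± 0.341 FPKM with IL-1β and 5.79 ± 0.492 FPKM in control (SD, n = 3). Rdm1, a gene with a RAD52 motif, had 8.02, 6.78 and 6.32 FPKM in co-culture, 5.42, 3.50 and 4.75 FPKM with IL-1β and 4.79, 5.38 and 5.01 FPKM in control. Outside the rule for naming, Rad54b and Tonsl, both of recombination repair, averaged 2.27 and 3.39 FPKM in co-culture.

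Promoter windows of 300 bases, 250 before the gene's start and 50 from it onward, were found in RefSeq (rat assembly GRCr8) for 48 of the 59 genes, and 8 short motifs were searched on both strands. The motifs TTTGGCG and TTTCGCG are letters of the kind that E2F factors, regulators of replication genes, are known to bind. The windows below are shown because Cdt1 is the only one of the 48 with both motifs, and because Phf19 and Ppid, which belong to other role groups, hold TTTCGCG as well. Each is printed 5′ to 3′ on the strand of the gene, with capitals for TTTGGCG or TTTCGCG or their reverse complements. Cdt1 lies at chr19:67528999-67529298 on the plus strand, Phf19 at chr3:38593805-38594104 on the minus strand and Ppid at chr2:167025735-167026034 on the plus strand.
Cdt1: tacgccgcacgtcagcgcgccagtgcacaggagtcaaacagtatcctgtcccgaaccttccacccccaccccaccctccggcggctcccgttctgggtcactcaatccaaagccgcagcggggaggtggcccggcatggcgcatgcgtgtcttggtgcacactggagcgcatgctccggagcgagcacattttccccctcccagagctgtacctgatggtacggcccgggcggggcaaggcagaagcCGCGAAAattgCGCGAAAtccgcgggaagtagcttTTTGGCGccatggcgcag
Phf19: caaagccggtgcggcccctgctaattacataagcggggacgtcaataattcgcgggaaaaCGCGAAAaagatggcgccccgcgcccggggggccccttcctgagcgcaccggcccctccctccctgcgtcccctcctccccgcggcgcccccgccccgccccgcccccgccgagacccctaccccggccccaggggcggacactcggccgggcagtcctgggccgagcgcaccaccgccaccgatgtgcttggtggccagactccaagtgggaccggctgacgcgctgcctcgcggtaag
Ppid: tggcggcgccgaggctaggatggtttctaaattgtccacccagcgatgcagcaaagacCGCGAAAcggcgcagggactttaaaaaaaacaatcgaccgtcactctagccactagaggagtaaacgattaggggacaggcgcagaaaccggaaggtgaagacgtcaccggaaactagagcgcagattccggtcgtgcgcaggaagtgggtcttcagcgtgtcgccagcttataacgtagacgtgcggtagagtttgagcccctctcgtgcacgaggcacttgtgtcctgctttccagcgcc
In Cdt1, TTTCGCG as its reverse complement begins 3 bases before and 8 bases after the start, and TTTGGCG begins 32 bases after it. In Phf19 and Ppid the match begins 190 and 192 bases before the start, and Hist1h2ail1 has 1 match 14 bases before it. TTTCGCG was in the windows of 4 of the 48 genes (8.33%), against 1.88% of 9087 genes measured here with a window and 0.867% of all 27457 windows. These 4, Cdt1, Hist1h2ail1, Phf19 and Ppid, no longer met the rule after either median-of-ratios scaling or quantile normalization. TTTGGCG was in 1 of 48 (2.08%), against 2.86% of the genes measured and 1.54% of all windows. Of the other 6 motifs, GGAATG was in 20.8% of the 48 and 10.97% of the genes measured, TGANTCA in 10.4% and 4.59%, GGGCGG in 68.8% and 64.9%, CCAAT in 31.2% and 38.7%, CACGTG in 6.25% and 9.85%, and TATAAA in 4.17% and 6.30%. The median GC content was 59.8% in the 48 windows and 61.3% in those of the genes measured. With 48 windows these shares rest on few genes, and a match in a window is a description of its letters only.

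Mitosis, the spindle and the centromere contributed 8 genes, with a median margin of 0.28. Aurka (gene ID 261730), the gene of the spindle pole kinase Aurora A, had 54.6, 50.4 and 49.1 FPKM in co-culture, 39.3, 40.8 and 43.7 FPKM with IL-1β and 39.9, 42.05 and 43.95 FPKM in control, so that the other 2 groups overlapped. Katnal1, which encodes a microtubule-severing enzyme related to katanin, had 4.55, 4.66 and 4.28 FPKM in co-culture, 2.83, 3.42 and 3.21 FPKM with IL-1β and 3.24, 3.38 and 2.34 FPKM in control. Apitd1, which RefSeq now calls Cenps and which encodes a protein of the centromere, had 25.9, 26.7 and 29.7 FPKM in co-culture, 18.5, 15.85 and 19.3 FPKM with IL-1β and 18.8, 24.5 and 24.7 FPKM in control. The remaining 5 genes, all outside the rule for naming, were Rcc1, the nucleotide exchange factor of Ran, at 40.5 FPKM in co-culture, Sapcd2 at 20.3 FPKM, Mis18a, a factor for loading the centromeric histone, at 15.01 FPKM, the centrosomal gene Cep72 at 9.31 FPKM, and Aunip, which encodes a partner of Aurora A, at 7.33 FPKM. In RNA from whole cultures, a larger share of dividing cells and more of these mRNAs in each cell cannot be told apart.

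Genes of RNA handling, ribosomes and nuclear transport numbered 9, with a median margin of 0.28, and co-culture means from 11.9 to 115.5 FPKM. Snrpa1 (gene ID 100361269), which encodes a protein of the U2 spliceosomal particle, had 81.9, 80.3 and 81.0 FPKM in co-culture, 54.7, 53.9 and 61.8 FPKM with IL-1β and 57.4, 57.4 and 65.7 FPKM in control. Its 3 co-culture libraries lay closer together than those of either other group. Nhp2 (gene ID 287273), of the box H/ACA particles that modify ribosomal RNA, had 121, 109 and 116 FPKM in co-culture, 88.8, 87.8 and 95.7 FPKM with IL-1β and 92.2, 94.5 and 99.0 FPKM in control, the highest level of the 59 genes. RGD1559951, a ribosomal protein gene that RefSeq now calls Rpl37al2, had 35.3, 30.7 and 37.35 FPKM in co-culture, 25.3, 18.8 and 26.0 FPKM with IL-1β and 24.5, 27.2 and 25.6 FPKM in control, and such genes have many near-identical copies, so its level is uncertain. Nup85, of the nuclear pore scaffold, averaged 39.4 ± 1.23 FPKM in co-culture, 29.6 ± 1.12 FPKM with IL-1β and 32.9 ± 1.42 FPKM in control (SD, n = 3). Cd3eap, which RefSeq now calls Polr1g and which encodes a subunit of RNA polymerase I, averaged 16.8 ± 0.264, 14.0 ± 0.421 and 13.8 ± 0.790 FPKM in co-culture, IL-1β and control (SD, n = 3). Outside the rule for naming were Nup35 of the nuclear pore, at 58.5 FPKM in co-culture, the mRNA export cofactor gene Nxt1, at 47.3 FPKM, the large ribosomal subunit assembly factor gene Mrto4, at 41.3 FPKM, and Lsm6 of the U6 particle, at 11.9 FPKM.

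Metabolic enzymes and folding factors made up 12 genes, with a median margin of 0.29. Ahcy (gene ID 29443), the enzyme that clears S-adenosylhomocysteine after methylation reactions, had 105, 102 and 97.25 FPKM in co-culture, 85.0, 82.5 and 82.1 FPKM with IL-1β and 85.3, 81.2 and 80.1 FPKM in control. Aldh3a1 (gene ID 25375), an aldehyde dehydrogenase gene, had 36.55, 35.7 and 32.5 FPKM in co-culture, 16.7, 17.7 and 15.5 FPKM with IL-1β and 26.6, 29.1 and 26.0 FPKM in control, with no overlap between any groups. Acot7, which encodes an acyl-CoA thioesterase, had 68.1, 73.1 and 67.4 FPKM in co-culture, 57.9, 57.35 and 56.8 FPKM with IL-1β and 54.1, 54.5 and 54.9 FPKM in control. The co-chaperone genes Ppid, of an Hsp90-binding cyclophilin, and Bag2, of an Hsp70 partner, averaged 74.7 ± 2.41 and 61.4 ± 2.40 FPKM in co-culture (SD, n = 3), with Ppid at 1.22-fold over IL-1β and 1.201-fold over control and Bag2 at 1.196-fold and 1.21-fold.

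In this group 3 genes rested on uneven libraries. Vkorc1l1, a relative of the vitamin K epoxide reductase gene, had 4.15, 4.66 and 5.38 FPKM in co-culture, 3.76, 1.63 and 0.89 FPKM with IL-1β and 3.72, 3.81 and 3.81 FPKM in control, with 1 IL-1β library at the level of control and 2 far below it. Chchd5, a mitochondrial protein gene, had 19.35, 14.9 and 18.55 FPKM in co-culture, 11.75, 12.5 and 9.77 FPKM with IL-1β and 11.9, 13.4 and 14.8 FPKM in control. Its lowest co-culture and highest control libraries almost touched, and it no longer met the rule under either scaling. Emc9, of the membrane protein insertion complex of the endoplasmic reticulum, had 2.86, 3.00 and 3.87 FPKM in co-culture, 1.77, 1.90 and 1.68 FPKM with IL-1β and 1.62, 2.26 and 2.82 FPKM in control. Nme3, a nucleoside diphosphate kinase gene, averaged 7.84 ± 0.624 FPKM in co-culture, 5.69 ± 0.698 FPKM with IL-1β and 5.67 ± 0.826 FPKM in control (SD, n = 3). Outside the rule for naming, Acy1 averaged 29.4 FPKM in co-culture, Alad of heme synthesis 26.7 FPKM, and Rnls 5.22 FPKM.

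Transcription and signalling held 7 genes, with a median margin of 0.28. Camk2n2 (gene ID 59314), which encodes an inhibitor of the kinase CaMKII, had 7.53, 6.07 and 6.13 FPKM in co-culture, 3.36, 6.01 and 5.66 FPKM with IL-1β and 3.85, 1.54 and 1.57 FPKM in control. Its co-culture and IL-1β libraries almost touched, IL-1β and control overlapped, and it no longer met the rule under either scaling. Siva1, which encodes a cell death factor, had 67.1, 64.9 and 61.6 FPKM in co-culture, 56.35, 51.8 and 50.9 FPKM with IL-1β and 53.65, 51.6 and 53.1 FPKM in control. Rnf151 averaged 3.39 ± 0.206 FPKM in co-culture, 2.64 ± 0.151 FPKM with IL-1β and 2.27 ± 0.214 FPKM in control (SD, n = 3). Outside the rule for naming were Phf19, which encodes a partner of the Polycomb complex PRC2, at 10.7 FPKM in co-culture, Nupr2 at 9.51 FPKM, Mllt3 of the transcription elongation machinery at 5.45 FPKM and Myod1, the muscle regulator gene, at 5.27 FPKM.

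Whether these genes also respond to IL-1β on its own was tested between the IL-1β and control libraries with limma, adjusted over all 11372 genes by the Benjamini-Hochberg method at a threshold of 0.05. Of the 59 genes 3 were higher with IL-1β (5.08%, against 20.5% of all genes), 14 were lower (23.7%, against 31.2%) and 42 did not pass; over both directions 28.8% passed, against 51.7% of all genes. After median-of-ratios scaling 6 were higher and 8 lower, against 2887 and 2877 of all 11372 genes. After quantile normalization 5 were higher and 9 lower, against 2463 and 3448 of all genes. The median difference was -0.05 in the 59 genes and -0.04 over all genes on the log2(FPKM + 1) scale, and the median size of the difference 0.10 and 0.16. The difference was negative in 40 genes and positive in 19. The co-culture libraries do not enter this difference, though they enter the estimate of its spread. The difference itself is between the IL-1β and control libraries that helped to choose the genes. These shares and the p-values of the 59 genes are therefore read as a description.

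The genes that were higher with IL-1β were Krt7, by a log2 difference of 0.70 ± 0.07 (SE; limma adjusted p = 1e-05), Camk2n2, by 0.89 ± 0.30 (limma adjusted p = 0.04), and Plau, by 0.16 ± 0.05 (limma adjusted p = 0.027). The largest falls with IL-1β were those of PCOLCE2, with a log2 difference of -0.73 ± 0.05 (limma adjusted p = 1e-07), Aldh3a1, -0.68 ± 0.06 (limma adjusted p = 2e-06), and Actg2, -0.65 ± 0.09 (limma adjusted p = 0.00011). Smaller falls were found for Apitd1, -0.32 ± 0.11 (limma adjusted p = 0.037), Chaf1b, -0.30 ± 0.06 (limma adjusted p = 0.0011), and Serpinb9, -0.22 ± 0.05 (limma adjusted p = 0.0053). The other 8 that fell, between -0.28 and -0.11, were Sapcd2, Myod1, Mllt3, Mrto4, Nup85, Cep72, Rcc1 and Alad, of which all but Nup85 are outside the rule for naming. By role, 4 of the 8 mitosis genes fell, as did 1 of 8 replication and repair genes, 2 of 9 RNA and transport genes, 2 of 12 metabolic and folding genes, 3 of 15 secreted and structural genes and 2 of 7 transcription and signalling genes. The share over all genes was 31.2%, and 3 of the 4 mitosis genes, Apitd1, Cep72 and Rcc1, were not past the threshold after median-of-ratios scaling.

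No difference past the threshold was found for Erfe, 0.00 ± 0.04 (SE; limma adjusted p = 0.96), Ahcy, 0.02 ± 0.04 (limma adjusted p = 0.72), Aurka, -0.02 ± 0.05 (limma adjusted p = 0.73), or Cdt1, 0.04 ± 0.04 (limma adjusted p = 0.53). Cst6 differed by 0.18 ± 0.07 (limma adjusted p = 0.054) and Orc1 by -0.13 ± 0.06 (limma adjusted p = 0.083). Some genes passed only in an alternative: Cst6 after median-of-ratios scaling (limma adjusted p = 0.029), after quantile normalization (0.018), without trend and robust settings (0.024) and without control library 2 (0.025), and Rnf151 after the same scalings (0.042 and 0.032), without trend and robust settings (0.048) and without control library 1 (0.037). Orc1 (0.019) and Emc9 (0.027) passed as lower without control library 1, Ifitm10 (0.034) as lower without IL-1β library 1, and Acot7 (0.015) as higher after median-of-ratios scaling. Vkorc1l1 had the lowest difference of all, -0.74 ± 0.30 (limma adjusted p = 0.083), and without IL-1β library 1 it was -1.10 (limma adjusted p = 8e-05). Past the threshold in each alternative that kept the gene were 8 genes, Actg2, Aldh3a1, Chaf1b, Krt7, Mrto4, PCOLCE2, Sapcd2 and Serpinb9. The other 9, Alad, Apitd1, Camk2n2, Cep72, Mllt3, Myod1, Nup85, Plau and Rcc1, were not past it when certain single libraries were left out.

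The call of Plau ended without IL-1β library 2 or control libraries 1 or 2, with limma adjusted p from 0.052 to 0.11. That of Camk2n2 ended without any co-culture library, IL-1β libraries 2 or 3, or control libraries 2 or 3 (limma adjusted p 0.059 to 0.12), and that of Apitd1 without co-culture libraries 1 or 2, IL-1β libraries 1 or 2, or control libraries 2 or 3 (0.05 to 0.12). Myod1 lost it without IL-1β or control libraries 2 or 3 (0.066 to 0.15), Mllt3 without IL-1β library 2 or control library 1 (0.079 to 0.084), Nup85 without IL-1β library 1 or control library 2 (0.05 to 0.058), and Rcc1 without IL-1β library 1 or control libraries 2 or 3 (0.077 to 0.11). Alad (0.058 to 0.16) and Cep72 (0.052 to 0.13) lost it without co-culture library 1, any IL-1β library, or control libraries 1 or 2. After median-of-ratios scaling Apitd1, Nup85, Rcc1, Alad, Cep72 and Myod1 were also not past the threshold, and with quantile normalization Mllt3, Rcc1, Alad, Cep72 and Myod1 were not. Fitted on the IL-1β and control libraries alone, Alad (0.064), Apitd1 (0.064), Camk2n2 (0.092) and Cep72 (0.058) were not past it, nor were Alad (0.051) and Myod1 (0.065) with no filter on low values.

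**Figure D4:**
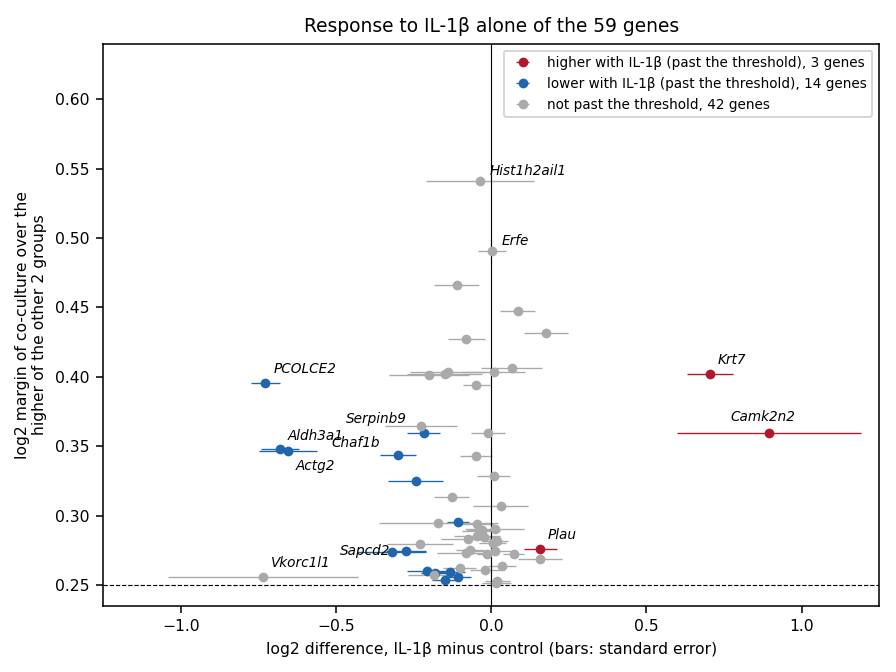
Each point is 1 of the 59 genes: the x axis is its log2 difference between IL-1β and control with the standard error, the y axis the margin of co-culture over the nearer other group, which chose the genes (dashed line, 0.25). Red points are the 3 genes higher with IL-1β, blue points the 14 lower and grey points the 42 not past the threshold; most grey points lie close to 0 on the x axis.

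The same processes were examined in gene lists that exclude the 59 genes. Of 38 other genes of DNA replication and nucleotide synthesis, 36 were higher and 0 lower in co-culture than with IL-1β (33.3% of all genes higher, 16.7% lower), with a median log2 difference of 0.33 against 0.06 over all genes. Against control, 25 were higher and 0 lower in co-culture (12.4% of all genes higher, 7.91% lower), with a median of 0.16 against 0.02. Both contrasts share the co-culture libraries, and 3 of the 38, Mcm3, Mcm5 and Mcm7, met the rule and were left out by symbol; without them the counts were 33 and 22 of 35. Under median-of-ratios scaling the counts for the 38 were 33 and 22 higher and under quantile normalization 35 and 18, with 0 lower in each. Of all 11372 genes, 2721 and 1146 were higher under the first scaling and 3199 and 1008 under the second. With IL-1β, 2 of the 38 were higher and 29 lower than in control (20.5% of all genes higher, 31.2% lower), with a median of -0.16. Every co-culture library lay above all others in 29 of the 38 (76.3%), against 9.03% of all genes.

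Rrm2, which encodes a subunit of ribonucleotide reductase and was the most abundant of them, averaged 328 ± 3.54 FPKM in co-culture, 259 ± 1.75 FPKM with IL-1β and 284 ± 3.18 FPKM in control (SD, n = 3). It was higher in co-culture than with IL-1β by a log2 difference of 0.34 ± 0.02 (SE; limma adjusted p = 6.5e-07) and than in control by 0.21 ± 0.02 (limma adjusted p = 0.00014). Paics, of purine synthesis, averaged 207 ± 3.39, 174 ± 4.43 and 194 ± 4.89 FPKM in co-culture, IL-1β and control (SD, n = 3). It was higher than with IL-1β by 0.25 ± 0.03 (limma adjusted p = 3.7e-05) and than in control by 0.09 ± 0.03 (limma adjusted p = 0.049). Impdh2, of guanine nucleotide synthesis, averaged 182 ± 3.57, 150 ± 1.496 and 180 ± 2.92 FPKM in co-culture, IL-1β and control (SD, n = 3). It was higher than with IL-1β by 0.28 ± 0.03 (limma adjusted p = 6.8e-06), while its difference from control was 0.01 ± 0.03 (limma adjusted p = 0.81).

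**Figure D5:**
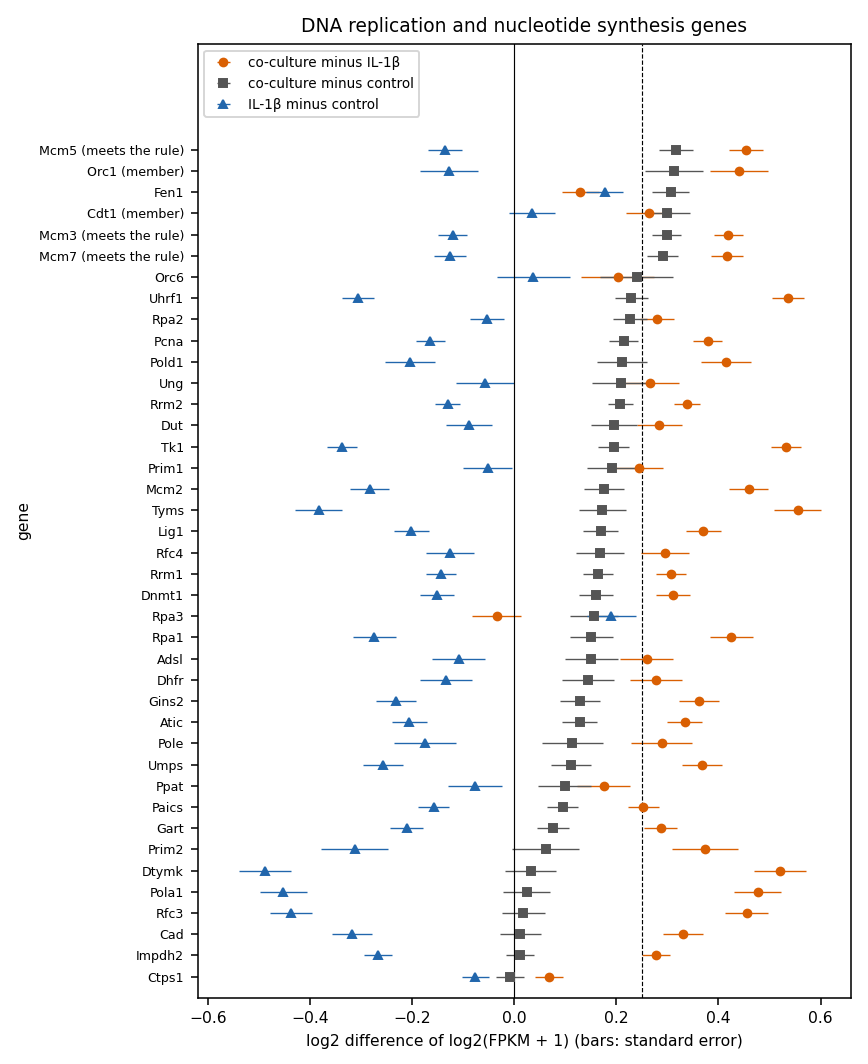
Log2 differences with standard errors of the 40 listed genes of DNA replication and nucleotide synthesis, including the members Cdt1 and Orc1 and the 3 Mcm genes that meet the rule, sorted by co-culture minus control; circles are co-culture minus IL-1β, squares co-culture minus control, triangles IL-1β minus control, and the dashed line is the margin of 0.25. Most circles and squares lie to the right of 0 and most triangles to the left, and only 5 genes, Mcm5, Orc1, Cdt1, Mcm3 and Mcm7, reach the margin against both groups without overlap.

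The lists of mitosis, ribosome, splicing, repair and chromatin genes each hold 1 of the 59. Over all genes, 33.3% were higher and 16.7% lower in co-culture than with IL-1β, and 12.4% higher and 7.91% lower than in control. Of 39 other mitosis and chromosome segregation genes, 37 were higher and 0 lower in co-culture than with IL-1β, and 15 were higher and 0 lower than in control, with medians of 0.31 and 0.10; after median-of-ratios scaling the counts were 35 higher and 1 lower, and 11 higher. Of 28 other ribosome biogenesis genes, 21 were higher and 0 lower than with IL-1β, and 15 higher and 0 lower than in control, with medians of 0.21 and 0.14; after median-of-ratios scaling the higher ones were 14 and 12. Of 25 other genes of mRNA splicing and export, 20 and 13 were higher and 0 lower, with medians of 0.22 and 0.13; against control only 3 were higher after quantile normalization. Of 27 other DNA repair genes, 17 were higher and 2 lower than with IL-1β, and 8 higher and 0 lower than in control, and of 24 other histone and chromatin genes 15 higher and 1 lower, and 7 higher and 1 lower. After median-of-ratios scaling 13 of the repair genes and 8 of the chromatin genes were higher than with IL-1β. Of all 11372 genes, 2721 were higher and 2636 lower than with IL-1β after this scaling, and 1146 higher and 1073 lower than in control. After quantile normalization 1008 of all genes were higher and 1166 lower than in control.

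Metabolic and protease members have lists of their own. The shares of all genes higher and lower in co-culture were 33.3% and 16.7% against IL-1β, and 12.4% and 7.91% against control. Of 24 other genes of amino acid and one-carbon metabolism, the list of Ahcy, 19 were higher and 0 lower in co-culture than with IL-1β, but 6 were higher and 9 lower than in control, with a median of 0.01. The folding genes Ppid and Bag2 are on no list. Of 23 cytosolic chaperone genes 17 were higher and 1 lower than with IL-1β, and 16 higher and 0 lower than in control. Of 28 genes of endoplasmic reticulum folding and secretion, these counts were 5 and 14, and 3 and 6. Of 25 other genes of serine protease inhibitors and proteolysis, the list of Plau and Serpinb9, 8 were higher and 11 lower than with IL-1β, and 7 higher and 8 lower than in control, with medians of -0.09 and -0.08. In this list 1 of 25 genes (4%) had every co-culture library above all others, against 9.03% of all genes. Of its abundant genes, 2 lay between the other groups in co-culture: Ctsl, a lysosomal protease gene, averaged 1211 ± 31.5 FPKM in co-culture, 896 ± 25.6 FPKM with IL-1β and 1388 ± 29.7 FPKM in control, and Mmp2, a gelatinase gene, 688 ± 8.33, 1223 ± 21.0 and 567 ± 3.72 FPKM in co-culture, IL-1β and control (SD, n = 3).

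Some members are known as markers of other cell types. Krt10, a keratin gene of the upper epidermis, had 1.70, 1.72 and 2.12 FPKM in co-culture, 1.12, 1.46 and 1.10 FPKM with IL-1β and 1.51, 1.34 and 1.21 FPKM in control. Of 13 listed keratinocyte markers 9 were in the table and 2 reached a mean of 1 FPKM; without Krt10 the other 8 summed to 2.61 to 3.14 FPKM in co-culture, 1.72 to 2.19 FPKM with IL-1β and 3.44 to 3.83 FPKM in control, and Krt1 was at 0 to 0.05 FPKM in every library. Myod1 had 4.76, 5.59 and 5.46 FPKM in co-culture, 3.51, 3.21 and 2.96 FPKM with IL-1β and 3.51, 4.62 and 3.92 FPKM in control. Of 12 listed skeletal muscle markers 10 were in the table and 2 reached a mean of 1 FPKM, Myod1 and Tnnt3. Tnnt3 was at 1.40 to 3.52 FPKM, Myog at 0 to 0.05 FPKM and Ckm at 0 to 0.06 FPKM over all libraries. The list without Myod1 summed to 2.68 to 3.41 FPKM in co-culture, 2.41 to 2.83 FPKM with IL-1β and 2.68 to 4.41 FPKM in control. Near Actg2, the summed level of pericyte and smooth muscle markers was 154 to 164 FPKM in co-culture, 71.4 to 76.5 FPKM with IL-1β and 192 to 199 FPKM in control, the order also found without its most abundant marker (31.45 to 33.2, 13.9 to 16.5 and 35.3 to 36.8 FPKM). Dermal fibroblast markers summed to 242 to 254 FPKM in co-culture, 513 to 525 FPKM with IL-1β and 219 to 229 FPKM in control. Without the most abundant of them, Sfrp2, which was looked at after its values were seen, the sums were 172 to 184, 194 to 196 and 204 to 214 FPKM in the same order of groups. By limma, of the 11 dermal markers measured, 3 were higher and 5 lower in co-culture than with IL-1β. Against control, 4 were higher and 5 lower in co-culture, and 4 higher and 5 lower with IL-1β. Over all genes, 33.3% were higher and 16.7% lower in co-culture than with IL-1β, and 12.4% and 7.91% than in control. The part of other cell types in the levels of the 59 genes was not tested.

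At the edge of the rule, the genes just inside the margin were Nup85 at 0.254, Bag2 at 0.253 and Cd3eap at 0.251, and those just outside it Thop1 at 0.248, Chtf18 at 0.248 and Fgf18 at 0.246. Thop1, an oligopeptidase gene, averaged 26.0 FPKM in co-culture, 19.1 FPKM with IL-1β and 21.7 FPKM in control, Chtf18, of sister chromatid cohesion, 11.2, 7.89 and 9.31 FPKM, and Fgf18, a growth factor gene, 9.67, 3.77 and 7.98 FPKM in the same order of groups. Apitd1, Cd3eap and RGD1559951 passed the symbol filter only under the symbols of the deposited table, since their RefSeq symbols begin with left-out prefixes. In the RefSeq order of protein-coding genes, Vkorc1l1 lies next to Nupr2 and Acot7 next to Gpr153, with no overlap in either pair.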

How the data were processed

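RNA sequencing libraries were captured with oligo(dT) beads, per the labels' protocols. The authors deposited FPKM values for 17298 genes, with columns assigned to samples by name. Aligner, quantifier, annotation and strand setting: not given in the sources used here. GRCm38, a mouse build, is the reference named in the submitters' processing notes, whereas 16152 gene identifiers (93.4%) were found in the RefSeq table of the rat assembly GRCr8. Counts were not analysed here, and low values gave whole multiples of the smallest value too rarely to recover depth (50.7% within 0.1), so precision rests on 3 libraries per group. FPKM are relative within a library.

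Genes with a mean of at least 1 FPKM (11372) were fitted as log2(FPKM + 1), which understates changes of low genes, in limma 3.58.1 (R 4.3.3), using 1 coefficient for each group, trend and robust settings, two-sided tests and Benjamini-Hochberg adjustment over all of them. The script was tested on simulated data. Folds are ratios of mean FPKM. Tables, motif searches and figures were made with Python 3.11.15, pandas 2.3.3 and matplotlib 3.10.9. Alternatives were a pseudocount of 0.1, other filters, scalings and margins, a replicate block, simpler variance settings, a fit without the co-culture libraries and leaving out each library. The members and the gene lists were chosen with earlier results of these data known, and the role groups were assigned after the values were seen. Genes were named by a rule on margin, level, response to IL-1β, distance from the margin and list membership, which covers 36 of the members; the other 23 are marked as outside it and were named after their values were seen. Of the genes within the rule, 1 is not reported here.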

Additional observations from a re-analysis of the deposited data

How the results depend on the processing

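The number of genes highest in co-culture was 35 after median-of-ratios scaling and 1 with a margin of 0.5, against 59, and leaving out 1 library gave 59 to 88. Lowest in co-culture by the same rule were 23 genes with median-of-ratios scaling and 27 with quantile normalization, against 13. Of the 59 genes, those higher with IL-1β than control numbered 6 with median-of-ratios scaling, 5 with quantile normalization and 5 without trend and robust settings, against 3, and 1 to 3 when 1 library was left out, with 1 without IL-1β library 2. Those lower numbered 8 and 9 after the same scalings, against 14, and 8 to 14 when 1 library was left out, with 8 without control library 2 and 9 without IL-1β library 2. The cause of these shifts was not tested. Over all genes, leaving out 1 library gave 2075 to 2304 higher and 3147 to 3505 lower for IL-1β against control, 3316 to 3765 and 1668 to 1895 for co-culture against IL-1β, and 1004 to 1421 and 647 to 888 for co-culture against control. The split for IL-1β against control was 2330 higher and 3544 lower, but 2887 and 2877 with the first of these scalings and 2463 and 3448 with the second; for co-culture against IL-1β it was 3786 and 1901, but 2721 and 2636, and 3199 and 2289; and for co-culture against control 1408 and 899, but 1146 and 1073, and 1008 and 1166. Same-numbered libraries of different groups correlated in their deviations at -0.05 to 0.19 and differently numbered ones at -0.22 to 0.13. These ranges overlap, and whether the numbers pair the libraries weakly was not settled. With the replicate number as a block, 2 of the 59 genes were higher and 13 lower with IL-1β, and 2329 and 3529 of all genes. No called difference of a named gene changed direction under an alternative. The block also ended the calls of Camk2n2 and Cep72. All 59 genes still met the rule with a pseudocount of 0.1, and 27 did so in all 9 settings that left out 1 library. Without counts the depth sets no stated limit, and small differences of low genes rest on 3 libraries per group.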
